A study of Homo sapiens with 8 samples.

Results

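Very long protein-coding genes are described here, defined as genes of the deposited tables that GENCODE 29 annotates as protein-coding with a span of at least 300000 bp on GRCh38. Members of several gene families (protocadherins, GABA-A receptor subunits, collagens, laminins, ADAMTS proteases, integrins and axon guidance ligands and receptors) were left out by symbol. The rule found 67 genes, of 1221 different genes listed in the 3 tables, and they account for 79 entries. It used annotation, but a gene enters only if the authors' thresholds had listed it in a table, so each member had to differ from the controls in at least 1 table and its being listed is not a finding. The listed genes nearest the span limit were IQGAP2 (304884 bp) and SPECC1 (309683 bp) inside it, and CENPP (295050 bp) and PRUNE2 (294712 bp) outside it.

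The RNA came from K-562, an established human leukaemia cell line with erythroid and megakaryocytic properties, and was sequenced after removal of ribosomal RNA. TASOR belongs to HUSH, the human silencing hub, which keeps LINE-1 retrotransposons and a number of genes repressed. TASOR2 is a related protein encoded by a paralogous gene. The altered groups were TASOR knockout cells, TASOR knockout cells that express a FLAG-TASOR transgene (below, FLAG-TASOR cells), and parental wild-type cells that express a FLAG-TASOR2 transgene (FLAG-TASOR2 cells). Each was set against parental wild-type cells that carried a negative guide RNA, and each group had 2 libraries. The labels' protocols describe CRISPR/Cas9 plasmids, colonies grown from single sorted cells, and lentiviral delivery of empty puromycin vectors or transgenes. A change found in a clone can therefore not be told apart from an effect of the knockout. The labels name no guide for the FLAG-TASOR2 cells, so guide treatment and transgene cannot be told apart there.

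A very long gene consists almost wholly of introns, and RNA polymerase needs far longer to cross it than to cross a gene of common size. Many such genes encode adhesion molecules, ion channels and scaffolds of neurons, and several lie at common fragile sites, where late replication and transcription of the same stretch meet. Introns of long genes also hold many LINE-1 copies, and HUSH is known to act on young LINE-1 copies in introns of transcribed genes. LINE-1 positions were not analysed here.

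The 67 members had a median span of 450470 bp, against 442457 bp for all 769 annotated genes that meet the rule. Exons covered a median of 1.95% of the span, from 0.195% in SGCZ to 5.50% in AKAP13, and 1.86% in the annotated class. The median number of merged exons was 25, against 24 in the annotated class, and ran from 4 in TSHZ2 to 89 in DYNC2H1. In spans this wide, 62 of 67 members overlapped another annotated gene and 59 overlapped an annotated gene on the opposite strand. No source used here states whether the authors' counting used strand, so such reads may not be separable. No member overlapped another listed gene of its own table (0 entries in each of the 3 tables). PRH1-PRR4 is a read-through gene that overlapped 14 protein-coding genes, so its counts are uncertain.

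The annotated span is not always the span of the main product. For 57 members the principal transcript (APPRIS tag in GENCODE 29) also covered at least 300000 bp, and for 10 it was shorter. In SLC27A6 the gene covers 495630 bp and the principal transcript 68504 bp, in KCNS3 483770 and 55108 bp, and in EGLN3 538544 and 26851 bp. The others were RPS6KA2, MGLL, TUSC3, THRB, BANK1, CD96 and SPATA13.

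Sequences before the start site of 4 members are shown as examples. PLXDC2 had the lowest adjusted p of all members, and SLC27A6 was the only member listed in all 3 tables. DYNC1I1 was listed as higher in both the knockout and the FLAG-TASOR2 table, and TRDN in both transgene tables. PLCB1 and CEP128 were listed in the same way as DYNC1I1 and are not shown. Each run holds the 250 bases before a RefSeq start site (build GRCh38.p14), 5′ to 3′ on the gene's strand, and capitals mark CG dinucleotides. The windows are chr10:19816182-19816431 (plus strand) for PLXDC2, chr7:95772304-95772553 (plus) for DYNC1I1, chr6:123636951-123637200 (minus) for TRDN and chr5:128965238-128965487 (plus) for SLC27A6.
PLXDC2: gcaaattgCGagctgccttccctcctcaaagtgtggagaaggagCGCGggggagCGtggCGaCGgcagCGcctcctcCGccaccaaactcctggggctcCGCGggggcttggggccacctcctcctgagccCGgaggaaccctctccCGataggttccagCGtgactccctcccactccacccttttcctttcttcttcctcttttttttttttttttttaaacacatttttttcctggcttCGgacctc
DYNC1I1: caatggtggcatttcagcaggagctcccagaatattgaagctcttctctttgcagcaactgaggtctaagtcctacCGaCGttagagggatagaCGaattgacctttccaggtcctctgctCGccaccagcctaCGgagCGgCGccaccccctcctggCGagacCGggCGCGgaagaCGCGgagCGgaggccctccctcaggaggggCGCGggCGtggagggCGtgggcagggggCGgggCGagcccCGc
TRDN: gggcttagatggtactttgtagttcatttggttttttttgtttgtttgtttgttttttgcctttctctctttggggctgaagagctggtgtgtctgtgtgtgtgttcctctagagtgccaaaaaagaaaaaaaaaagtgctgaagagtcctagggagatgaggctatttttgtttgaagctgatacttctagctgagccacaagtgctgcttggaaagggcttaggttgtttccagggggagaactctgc
SLC27A6: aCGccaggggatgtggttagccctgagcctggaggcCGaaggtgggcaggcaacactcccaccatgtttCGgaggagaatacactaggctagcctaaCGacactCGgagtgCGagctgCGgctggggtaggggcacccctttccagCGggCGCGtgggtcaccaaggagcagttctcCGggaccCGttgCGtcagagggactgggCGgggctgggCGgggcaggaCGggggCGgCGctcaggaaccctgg
The PLXDC2 window holds 14 CG dinucleotides, that of DYNC1I1 21 and that of SLC27A6 18, whereas the TRDN window holds 0, and the median over all 35116 RefSeq promoter windows is 11. The start site of SLC27A6 lies 427475 bp inside the GENCODE gene, against 48 bp for DYNC1I1, 193 bp for PLXDC2 and 143 bp for TRDN. Of the 67 members, 53 matched the RefSeq table by symbol, with 95 windows and a median of 14 CG dinucleotides, and 24 of the 53 had more than 1 start site. The letters TATAAA occurred on either strand in 10.5% of the members' windows and in 10.7% of all windows. AGATAA, a form of the GATA motif, occurred in 7.37% and 9.17%. The tables do not show which start site was used.

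The authors' deposited tables hold 268, 261 and 884 genes for the knockout, FLAG-TASOR and FLAG-TASOR2 comparisons, and list a gene only where its unadjusted p was below 0.05, its log2 mean expression above 1 and its log2 fold change beyond 1 in either direction. They hold no value per library, so neither the depth nor the spread between the 2 libraries of a group can be shown. Where a gene is listed at a value with ±, the value is its log2 fold change against the controls. Values after ± are approximate SEs (n = 2 libraries per group), obtained from the authors' F score as the size of the log2 fold change over that score's square root. Levels in CPM (read counts scaled to library size) are approximate means of a group, derived from the deposited log2 mean and log2 fold change with both groups weighted equally. A partial check on this derivation is that the same controls enter each table. For the 11 members listed in more than 1 table, the highest control level derived was 1.02 to 1.26 times the lowest. Most of them were listed in the same direction each time, so a bias shared by the tables would not show in this check. In bulk RNA, fewer cells that express a gene and less RNA per cell cannot be told apart. TASOR itself was listed at -1.08 ± 0.23 in the knockout and TASOR2 at 2.26 ± 0.27 with FLAG-TASOR2 in the authors' deposited tables. TASOR was not listed in the FLAG-TASOR table, in either direction, so no value shows the transgene in those cells. Of 15 K-562 markers, 0, 1 and 3 were listed in the 3 tables, all as higher and all of them globin genes (HBE1, HBZ, HBA1 and HBA2), and unlisted markers have no value here. Of 7 genes chosen as markers of other blood cells only PTPRC was listed, as higher in the knockout (152.9 CPM in knockout cells and 47.1 CPM in controls). PTPRC was thus clearly expressed in the K-562 controls and does not set other blood cells apart here. The part of these genes in the results below was not tested.

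No member passed an adjusted p of 0.05 in any table (0 of 17, 0 of 22 and 0 of 40 members by the deposited test, with all 79 entries at an unadjusted p below 0.05). Among all listed genes, 0.373%, 0% and 0.566% passed. All members are therefore called listed as higher or lower, and none is said to have risen or fallen. The lowest adjusted p of a member was 0.937 in the knockout, 0.999 in FLAG-TASOR cells and 0.0787 in FLAG-TASOR2 cells. An unadjusted p below 0.01 was reached by 8 of 17 members in the knockout (47.1%, against 34.7% of all listed genes), 5 of 22 in FLAG-TASOR cells (22.7% against 24.1%) and 18 of 40 in FLAG-TASOR2 cells (45% against 43.8%).

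Very long genes made up a larger share of the tables than of the annotation. In the knockout, 2.21% of the 769 annotated very long genes were listed, against 1.01% of 19144 shorter protein-coding genes. With FLAG-TASOR the shares were 2.86% and 0.977%, and with FLAG-TASOR2 5.20% and 3.56%. For comparison, 1.92% of the 13992 genes that the authors tested in the knockout and 6.31% of the 14001 in the FLAG-TASOR2 comparison were listed, and for FLAG-TASOR the number tested could not be recovered. Which very long genes were tested is unknown, and an unlisted gene may be unexpressed, so these shares are descriptions without a test. The share already increased below the limit: in the knockout it was 0.658% for spans under 10 kb, 1.17% from 30 to 100 kb, 1.86% from 100 to 300 kb and 2.55% from 300 to 500 kb, and it was 1.67% above 500 kb. With FLAG-TASOR it was 1.65% from 100 to 300 kb, 2.77% from 300 to 500 kb and 3.01% above 500 kb. With FLAG-TASOR2 the same classes had 4.94%, 5.96% and 4.01%, so genes of 100 to 300 kb came near the 5.20% of the members.

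**Figure D1:**
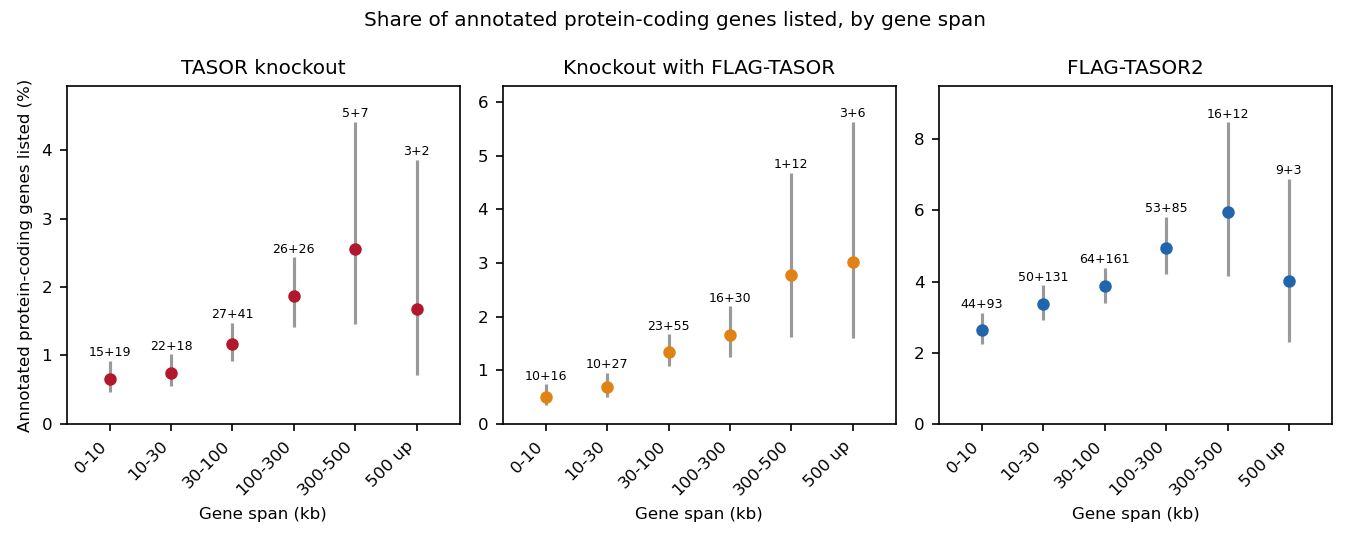
Share of annotated protein-coding genes that were listed (vertical axis, percent) by gene span (horizontal axis, kb) in the 3 comparisons; the families left out by symbol are removed from 300 kb upward. Points are shares, bars 95% Wilson intervals for counting error only, and the numbers above give genes listed as higher + lower. In the knockout the share is 0.658% under 10 kb and 2.55% at 300 to 500 kb.

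The direction differed from table to table. In the knockout 8 members were listed as higher and 9 as lower, where 51.1% of all listed genes were higher and 48.9% lower, and 46.4% of listed shorter protein-coding genes were higher. In FLAG-TASOR cells 4 were higher and 18 lower, where 67.4% of all listed genes were lower and 32.6% higher, and 31.6% of listed shorter protein-coding genes were higher. In FLAG-TASOR2 cells 25 were higher and 15 lower (62.5% higher), where 40.5% of all listed genes were higher and 59.5% lower, and 31% of listed shorter protein-coding genes were higher. Median log2 fold changes of the members were -1.07 in the knockout, -1.79 with FLAG-TASOR and 1.45 with FLAG-TASOR2 in the authors' deposited tables, beside 1.01, -1.36 and -1.20 over all listed genes. Since no listed gene lies between -1 and 1, such a median can change sign when a few genes are added or left out. None of these differences between members and other genes was tested.

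The first comparison asked what changed on loss of TASOR. The member with the smallest p was PLCB1 (chromosome 20, 8077251 to 8968360), a phospholipase C that acts downstream of G protein-coupled receptors. Its level was 5.62 CPM in knockout cells and 0.117 CPM in controls, and its log2 fold change was 5.59 ± 1.00 (unadjusted p 0.00201) in the authors' deposited table. By this derived level it was nearly silent in the controls. NELL2, a secreted glycoprotein of neural tissue, was at 6.10 CPM in knockout cells and 0.456 CPM in controls, with 3.74 ± 0.72 as its log2 fold change in the authors' deposited table. DYNC1I1 (chromosome 7, 95772506 to 96110322), an intermediate chain of cytoplasmic dynein, was at 8.15 CPM in knockout cells and 1.06 CPM in controls with 2.94 ± 0.55 as its log2 fold change in the authors' deposited table. The kinase gene RPS6KA2, at 2.88 ± 0.74, and BANK1, a scaffold protein of B cell receptor signalling, at 2.33 ± 0.89, completed the members with large positive values in the authors' deposited table. Of the 8 members listed as higher, 4 had a control level below 1 CPM (50%, against 29.2% of all genes listed as higher).

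The other 3 members listed as higher in the knockout were well expressed in the controls and had smaller values. RALGAPA2, the catalytic subunit of a GTPase-activating complex for Ral, was at 41.6 CPM in knockout cells and 16.4 CPM in controls (log2 fold change 1.34 ± 0.32 in the authors' deposited table). CEP128, a centriole protein, was at 24.0 CPM in knockout cells and 9.79 CPM in controls (log2 fold change 1.29 ± 0.31 in the authors' deposited table). GPHN encodes gephyrin, which anchors inhibitory neurotransmitter receptors and makes the molybdenum cofactor, and was at 34.8 CPM in knockout cells and 13.4 CPM in controls (log2 fold change 1.37 ± 0.42 in the authors' deposited table).

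The 9 members listed as lower in the knockout had log2 fold changes between -3.90 and -1.07 in the authors' deposited table. MGLL (chromosome 3, 127689062 to 128052190), the lipase that breaks down monoacylglycerols, was at 0.342 CPM in knockout cells and 5.10 CPM in controls, log2 fold change -3.90 ± 0.70 (unadjusted p 0.00208) in the authors' deposited table. AKAP13, an anchor of protein kinase A, was at 0.669 CPM in knockout cells and 6.58 CPM in controls (log2 fold change -3.30 ± 0.61 in the authors' deposited table). PITPNC1, a phosphatidylinositol transfer protein, was at 0.718 CPM in knockout cells and 4.38 CPM in controls (log2 fold change -2.61 ± 0.75 in the authors' deposited table). These 3 genes had levels below 1 CPM in the knockout. CREB5, a transcription factor of the CREB family, was at 3.46 CPM in knockout cells and 34.1 CPM in controls (log2 fold change -3.30 ± 0.96 in the authors' deposited table). ATXN1, a chromatin-binding regulator whose expanded form causes a spinocerebellar ataxia, was at 4.55 CPM in knockout cells and 28.8 CPM in controls (log2 fold change -2.66 ± 0.92 in the authors' deposited table). The lower values of both left clear expression in the knockout. SLC27A6, a fatty acid transport protein, was listed at -2.76 ± 0.88, KLHL29, a member of the kelch-like family, at -1.96 ± 0.54 and SORCS1, a sorting receptor of the Vps10p family, at -1.55 ± 0.53 in the authors' deposited table. SCFD2, of the Sec1 family, had the smallest change and the smallest approximate SE of the lower members (log2 fold change -1.07 ± 0.21 in the authors' deposited table), at 28.4 CPM in knockout cells and 59.7 CPM in controls.

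**Figure D2:**
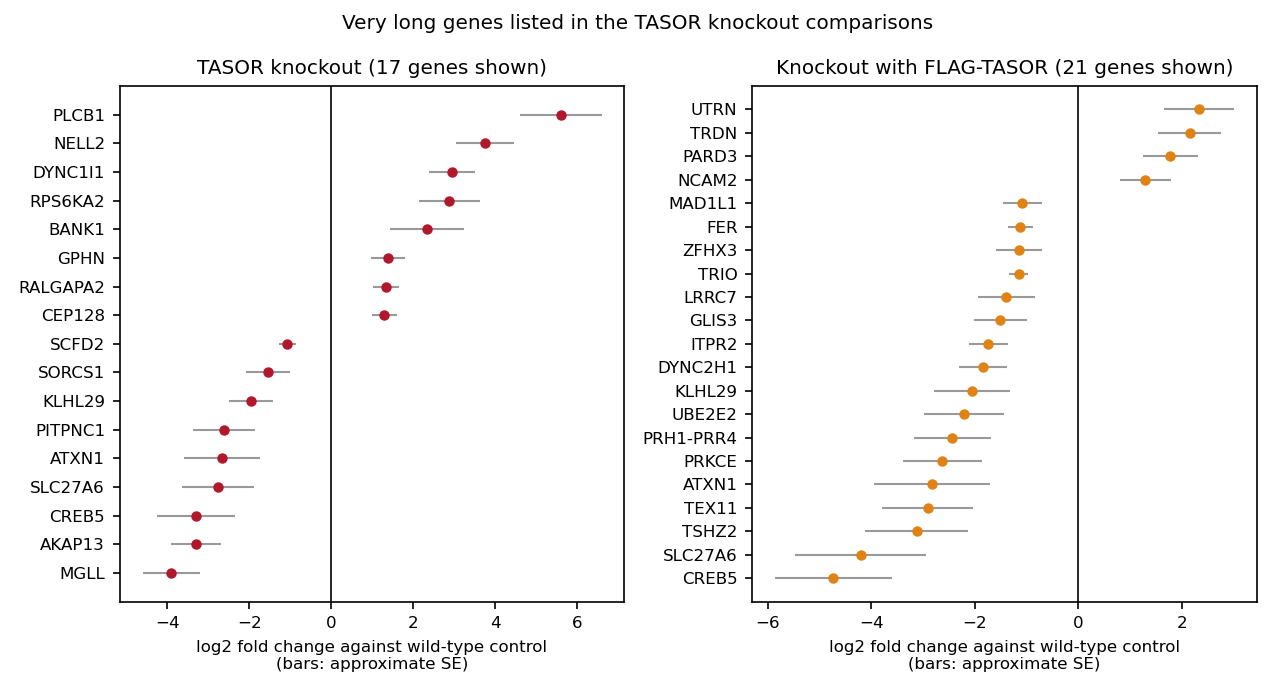
Deposited log2 fold changes against wild-type controls (horizontal axis) of the 17 members listed in the TASOR knockout (left) and 21 of the 22 listed in knockout cells with FLAG-TASOR (right), 1 gene per line; points are the authors' values and bars the approximate SEs. In the knockout 8 points lie above 0 and 9 below; with FLAG-TASOR 4 of those shown lie above and 17 below.

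The second comparison asked how knockout cells that express FLAG-TASOR differed from the controls. Here 18 of 22 members were listed as lower. The gene with the smallest p was TRIO (chromosome 5, 14143702 to 14532128), an exchange factor for small GTPases, at 50.9 CPM in FLAG-TASOR cells and 113 CPM in controls, log2 fold change -1.16 ± 0.19 (unadjusted p 0.00125) in the authors' deposited table. FER, a cytoplasmic tyrosine kinase, was at 28.0 CPM in FLAG-TASOR cells and 60.9 CPM in controls (log2 fold change -1.12 ± 0.24 in the authors' deposited table), and ITPR2, a calcium release channel of the endoplasmic reticulum, at 16.6 CPM in FLAG-TASOR cells and 55.4 CPM in controls (log2 fold change -1.74 ± 0.38 in the same table). These genes kept substantial expression. The most negative values were those of CREB5, at 1.30 CPM in FLAG-TASOR cells and 34.8 CPM in controls (log2 fold change -4.74 ± 1.13 in the authors' deposited table), and SLC27A6, at 0.558 CPM in FLAG-TASOR cells and 10.3 CPM in controls (log2 fold change -4.20 ± 1.27 in the same table).

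In the FLAG-TASOR table, 18 of 22 members and 67.4% of all listed genes were lower. The transcription factor and chromatin list had 5 members in this table, all listed as lower (0 called), with a median of -2.83. Beside CREB5 they were TSHZ2, a zinc finger homeobox gene (log2 fold change -3.13 ± 1.00), ATXN1 (log2 fold change -2.83 ± 1.11), GLIS3, a Krüppel-like zinc finger gene (log2 fold change -1.51 ± 0.51), and ZFHX3 (log2 fold change -1.14 ± 0.44) in the authors' deposited table. ZFHX3 spans 1108987 bp and was at 4.14 CPM in FLAG-TASOR cells and 9.13 CPM in controls. TEX11, a gene on X that acts in meiosis, had -2.91 ± 0.88 as its log2 fold change in the authors' deposited table. TEX11 lies 23450 bp from the next listed gene, DLG3, which was lower as well (-3.39 ± 0.49 in the authors' deposited table). No other member of this table had a listed gene nearer. Opposite directions occurred too: PPFIBP1, the listed gene nearest to ITPR2 at 690233 bp, was higher (2.33 ± 0.65 in the same table). Whether listed neighbours share a direction was not tested. Further members listed as lower were PRKCE, an isoform of protein kinase C (log2 fold change -2.63 ± 0.77), DYNC2H1, the motor heavy chain for transport in cilia (log2 fold change -1.85 ± 0.46), UBE2E2, a ubiquitin-conjugating enzyme (log2 fold change -2.21 ± 0.77), and MAD1L1, of the spindle checkpoint (log2 fold change -1.09 ± 0.38), in the authors' deposited table. LRRC7, a synaptic scaffold, was at -1.39 ± 0.55, KLHL29 at -2.05 ± 0.73 and PRH1-PRR4 at -2.43 ± 0.74 in the authors' deposited table. Of the 18 lower members, 6 had a level below 1 CPM in FLAG-TASOR cells (33.3%, against 19.9% of all genes listed as lower).

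By the levels derived for this comparison, the 4 members listed as higher in FLAG-TASOR cells were above 1 CPM in the controls. For TRDN this depends on the derivation, since the FLAG-TASOR2 comparison gave 0.941 CPM for the same controls. UTRN (chromosome 6, 144285701 to 144853034) encodes utrophin, the paralog of dystrophin that links actin to the membrane. It was at 133 CPM in FLAG-TASOR cells and 26.5 CPM in controls, log2 fold change 2.33 ± 0.68 in the authors' deposited table. TRDN, which encodes triadin of the muscle calcium release complex, was at 5.04 CPM in FLAG-TASOR cells and 1.13 CPM in controls (log2 fold change 2.16 ± 0.61 in the authors' deposited table). PARD3, a scaffold of cell polarity, was at 9.05 CPM in FLAG-TASOR cells and 2.64 CPM in controls (log2 fold change 1.78 ± 0.53 in the authors' deposited table), and the neural adhesion gene NCAM2 at 62.6 CPM in FLAG-TASOR cells and 25.5 CPM in controls (log2 fold change 1.29 ± 0.49 in the same table). UTRN and NCAM2 were expressed clearly in both groups, TRDN and PARD3 weakly in the controls.

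The last comparison set FLAG-TASOR2 cells beside the controls and asked where they differed. PLXDC2 (chromosome 10, 19816239 to 20289856), a transmembrane protein with a plexin domain, had the lowest p of all members. It was at 17.8 CPM in FLAG-TASOR2 cells and 0.624 CPM in controls, log2 fold change 4.83 ± 0.46 (unadjusted p 4.5e-05, adjusted p 0.0787) in the authors' deposited table. TRDN was at 13.2 CPM in FLAG-TASOR2 cells and 0.941 CPM in controls (log2 fold change 3.82 ± 0.56 in the authors' deposited table), and KCNS3, a modulatory subunit of voltage-gated potassium channels, at 6.61 CPM in FLAG-TASOR2 cells and 0.347 CPM in controls (log2 fold change 4.25 ± 0.67 in the same table). By the levels derived for this comparison, these 3 genes were below 1 CPM in the controls. So were PLCB1, at 5.20 ± 1.01, DYNC1I1, at 2.94 ± 0.61, SGCZ, the zeta-sarcoglycan gene, at 4.38 ± 1.05, and CDH18, a classical cadherin, at 2.85 ± 1.07 in the authors' deposited table. In all, 9 of the 25 members listed as higher had a control level below 1 CPM (36%, against 25.4% of all genes listed as higher). TRDN and DYNC1I1 lie too near this limit to be sorted by it. For the same control libraries, the FLAG-TASOR comparison gave 1.13 CPM for TRDN and the knockout comparison 1.06 CPM for DYNC1I1. Counts below 1 CPM in the 3 comparisons are therefore approximate.

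Several other members listed as higher with FLAG-TASOR2 were above 1 CPM in the controls as well. IGF1R (chromosome 15, 98648539 to 98964530), the receptor of insulin-like growth factor 1, was at 116 CPM in FLAG-TASOR2 cells and 30.2 CPM in controls (log2 fold change 1.94 ± 0.31, adjusted p 0.139 in the authors' deposited table). MAST4, a microtubule-associated kinase, was at 76.5 CPM in FLAG-TASOR2 cells and 37.5 CPM in controls (log2 fold change 1.03 ± 0.20 in the authors' deposited table). SPECC1, a coiled-coil protein, was at 60.7 CPM in FLAG-TASOR2 cells and 25.1 CPM in controls (log2 fold change 1.27 ± 0.23 in the authors' deposited table). All 3 had approximate SEs of at most 0.31. FMN1, a formin that nucleates actin filaments, was at 52.6 CPM in FLAG-TASOR2 cells and 4.85 CPM in controls (log2 fold change 3.44 ± 1.04 in the authors' deposited table). SPATA13, an exchange factor for small GTPases, was at 30.3 CPM in FLAG-TASOR2 cells and 2.7 CPM in controls (log2 fold change 3.49 ± 0.92 in the same table), and the phosphatase gene PPM1L at 13.6 CPM in FLAG-TASOR2 cells and 1.97 CPM in controls (log2 fold change 2.79 ± 0.45). CEP128 was at 20.1 CPM in FLAG-TASOR2 cells and 9.57 CPM in controls (log2 fold change 1.07 ± 0.35 in the authors' deposited table).

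Of the transcription factor and chromatin list, 5 members were listed as higher and 1 as lower with FLAG-TASOR2 (0 called), with a median of 1.64. Among all members 62.5% were higher there, and among all listed genes 40.5%. ZFPM2 (chromosome 8, 104590733 to 105804532), a cofactor of GATA factors and at 1213800 bp the longest of the 67 genes, was at 31.5 CPM in FLAG-TASOR2 cells and 9.99 CPM in controls (log2 fold change 1.65 ± 0.38 in the authors' deposited table). The estrogen receptor gene ESR1 was at 19.0 CPM in FLAG-TASOR2 cells and 1.74 CPM in controls (log2 fold change 3.44 ± 1.08 in the authors' deposited table), and GLIS3 at 1.04 ± 0.38 in the same table. SMYD3 (chromosome 1, 245749342 to 246507312), a lysine methyltransferase, was the lower member and had the second-lowest p of all members in this table. It was at 21.8 CPM in FLAG-TASOR2 cells and 65.2 CPM in controls (log2 fold change -1.58 ± 0.21, adjusted p 0.125 in the authors' deposited table).

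Members listed as lower with FLAG-TASOR2 ranged from close to silent to clearly expressed there. SLC27A6 was at 0.287 CPM in FLAG-TASOR2 cells and 9.48 CPM in controls (log2 fold change -5.04 ± 1.14 in the authors' deposited table). MYO3B, a class III myosin, was at 0.399 CPM in FLAG-TASOR2 cells and 13.0 CPM in controls (log2 fold change -5.03 ± 1.38 in the authors' deposited table), and ADGRB3, an adhesion G protein-coupled receptor of neurons, at 0.948 CPM in FLAG-TASOR2 cells and 11.1 CPM in controls (log2 fold change -3.55 ± 0.89 in the same table). XYLT1, which starts glycosaminoglycan chains on core proteins, was at 0.333 CPM in FLAG-TASOR2 cells and 4.01 CPM in controls (log2 fold change -3.59 ± 1.15 in the authors' deposited table). These 4 of the 15 lower members were below 1 CPM in FLAG-TASOR2 cells (26.7%, against 19.6% of all genes listed as lower). CDC42BPA, a kinase downstream of Cdc42, was at 67.7 CPM in FLAG-TASOR2 cells and 168 CPM in controls (log2 fold change -1.31 ± 0.25 in the authors' deposited table). MGAT5, which branches N-glycans, was at 20.3 CPM in FLAG-TASOR2 cells and 47.2 CPM in controls (log2 fold change -1.22 ± 0.30 in the authors' deposited table), TUSC3, a subunit of the oligosaccharyltransferase, at 13.8 CPM in FLAG-TASOR2 cells and 34.3 CPM in controls (log2 fold change -1.32 ± 0.34), and IQGAP2, a scaffold that binds Rac and Cdc42, at 34.8 CPM in FLAG-TASOR2 cells and 74.5 CPM in controls (log2 fold change -1.10 ± 0.31). These last 4 genes kept over 10 CPM in FLAG-TASOR2 cells. RALGAPA2 was at -2.03 ± 0.56, DYNC2H1 at -1.52 ± 0.53, the phosphodiesterase gene PDE11A at -1.25 ± 0.40 and ANKRD44, an ankyrin repeat gene, at -1.27 ± 0.39 in the authors' deposited table.

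The remaining 9 members of this table fell outside the rule for named genes and are named after their values were seen. Listed as higher in the authors' deposited table were the hypoxia-factor prolyl hydroxylase EGLN3 (log2 fold change 1.22 ± 0.36), FAM189A1 (log2 fold change 2.94 ± 0.86), the methionine sulfoxide reductase MSRA (log2 fold change 2.73 ± 0.84), the zinc finger gene JAZF1 (log2 fold change 1.83 ± 0.58), ANKFN1 (log2 fold change 3.28 ± 1.05), the thyroid hormone receptor THRB (log2 fold change 2.42 ± 0.83) and CD96, a receptor of T and NK cells (log2 fold change 2.30 ± 0.83). Listed as lower in the same table were EXT1, a polymerase of heparan sulfate (log2 fold change -1.88 ± 0.63), and the phospholipase-like gene PLCL1 (log2 fold change -1.28 ± 0.52). The deposited table calls FAM189A1 by its newer symbol, ENTREP2.

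**Figure D3:**
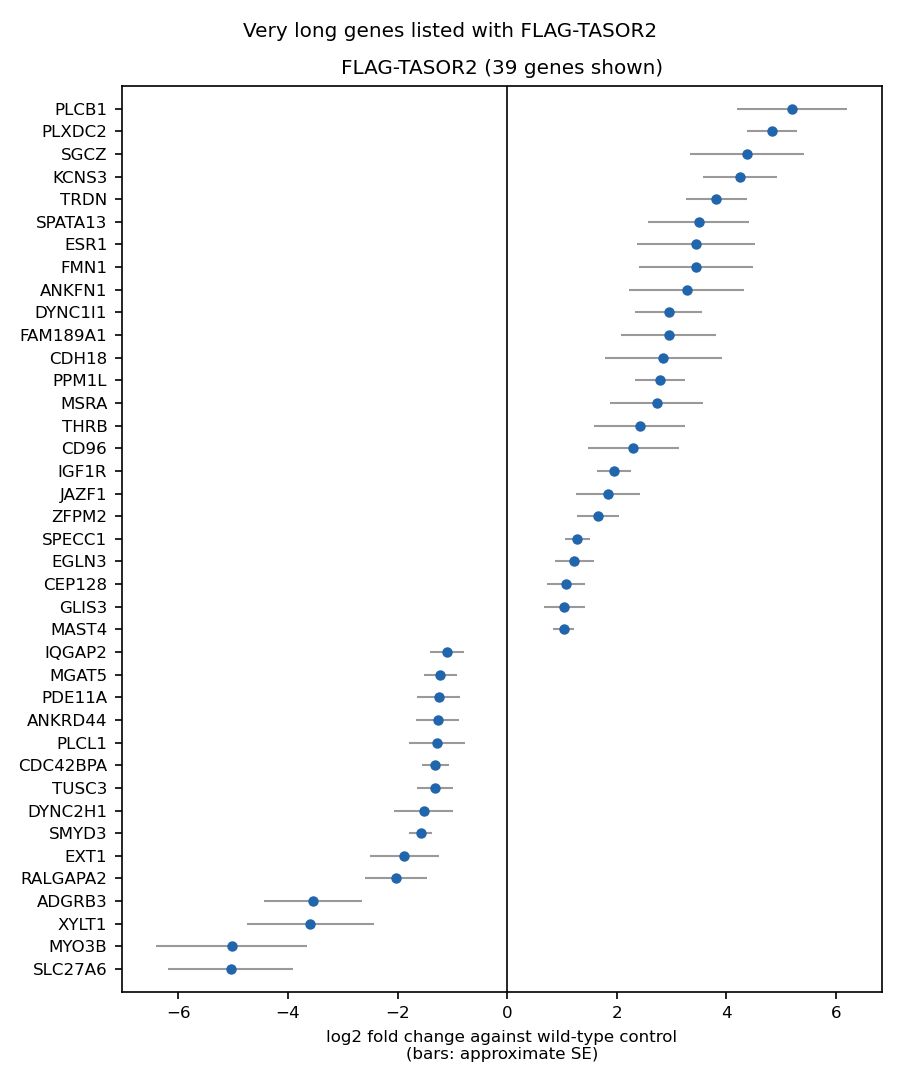
Deposited log2 fold changes against wild-type controls (horizontal axis) of 39 of the 40 members listed with FLAG-TASOR2, 1 gene per line; points are the authors' values and bars the approximate SEs. The 24 members shown above 0 reach 5.20 (PLCB1) and the 15 below 0 reach -5.04 (SLC27A6).

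A set of 11 members was listed in more than 1 table, 10 in 2 tables and SLC27A6 in 3. All comparisons share the same control libraries, so a repeat is not independent evidence. SLC27A6 (chromosome 5, 128538013 to 129033642) was at 1.40 CPM in knockout cells, 0.558 CPM in FLAG-TASOR cells and 0.287 CPM in FLAG-TASOR2 cells, against 9.46 to 10.3 CPM in the controls. CREB5 (chromosome 7, 28299321 to 28825894) was at 3.46 CPM in knockout cells and 1.30 CPM in FLAG-TASOR cells, against 34.1 to 34.8 CPM in the controls, and was not listed with FLAG-TASOR2. Both were below their controls in each table that lists them.

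ATXN1 was at 4.55 CPM in knockout cells and 3.33 CPM in FLAG-TASOR cells, against 23.7 to 28.8 CPM in the controls. KLHL29 was at 1.79 CPM in knockout cells and 1.83 CPM in FLAG-TASOR cells, against 6.94 to 7.57 CPM in the controls. DYNC2H1 was at 4.50 CPM in FLAG-TASOR cells and 4.45 CPM in FLAG-TASOR2 cells, against 12.8 to 16.2 CPM in the controls. Each of these 3 was lower than the controls in both tables that list it.

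PLCB1 was at 5.62 CPM in knockout cells and 4.02 CPM in FLAG-TASOR2 cells, against 0.109 to 0.117 CPM in the controls. DYNC1I1 was at 8.15 CPM in knockout cells and 6.60 CPM in FLAG-TASOR2 cells, against 0.857 to 1.06 CPM in the controls. CEP128 had 24.0 and 20.1 CPM in the same groups, against 9.57 to 9.79 CPM in the controls. PLCB1, DYNC1I1 and CEP128 were thus listed as higher both without TASOR and with added TASOR2, and none was listed in FLAG-TASOR cells, which gives no value for them there. TRDN was higher in both transgene tables, at 5.04 CPM in FLAG-TASOR cells and 13.2 CPM in FLAG-TASOR2 cells, against 0.941 to 1.13 CPM in the controls.

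In RALGAPA2 and GLIS3 the direction differed between tables. RALGAPA2 (chromosome 20, 20389552 to 20712488) was at 41.6 CPM in knockout cells and 4.50 CPM in FLAG-TASOR2 cells, against 16.4 to 18.4 CPM in the controls. Its log2 fold changes in the authors' deposited tables were 1.34 ± 0.32 and -2.03 ± 0.56 in that order. GLIS3 was at 3.99 CPM in FLAG-TASOR cells and 24.5 CPM in FLAG-TASOR2 cells, against 11.3 to 11.9 CPM in the controls. Whether the altered groups differ from each other was not tested, since the tables hold no comparison between them.

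**Figure D4:**
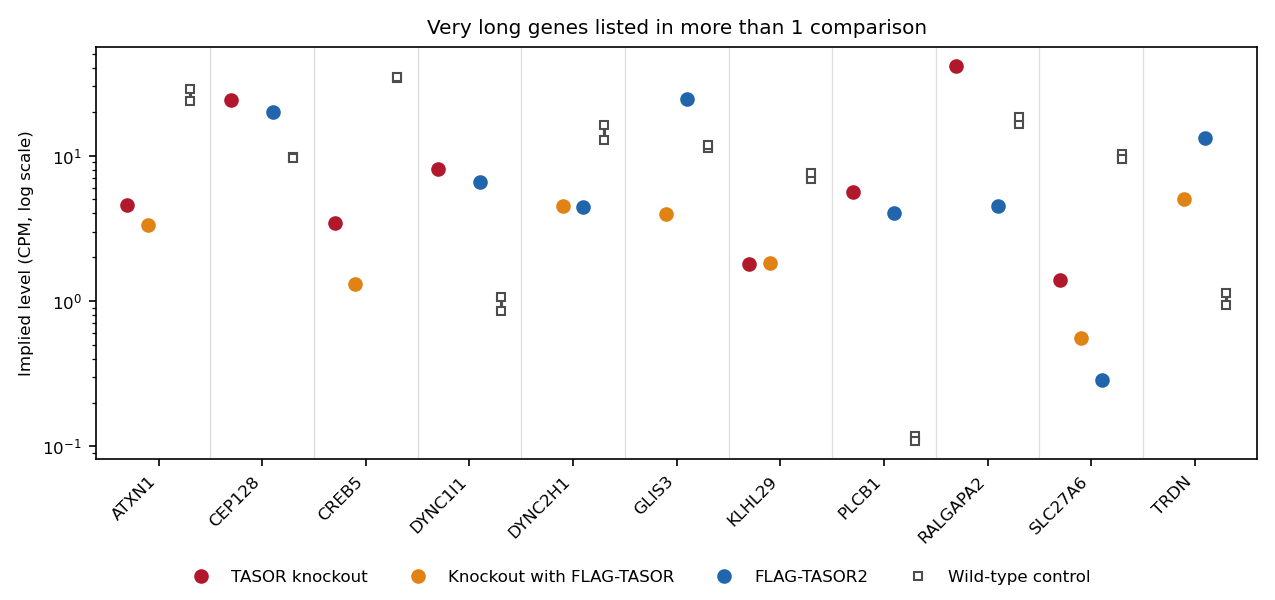
Approximate levels (vertical axis, CPM, log scale) of the 11 members listed in more than 1 comparison (horizontal axis). Filled circles are the altered groups, and open squares joined by a line are the levels of the same controls as derived from each table. RALGAPA2 and GLIS3 have altered groups on both sides of the controls, and the other 9 genes on 1 side.

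The 10 lists of textbook roles covered 31 of the 67 members, and counts below refer to the lists as written, which do not hold every gene of a class. Among the 36 members on no list are the kinase genes RPS6KA2, FER and CDC42BPA, the phosphatase gene PPM1L, the potassium channel gene KCNS3 and the exchange factor gene SPATA13. Over all annotated very long genes, 67 of 769 (8.71%) were listed in at least 1 table, and the lists are set beside that share without a test. The list of transcription factors and chromatin regulators had 10 listed genes of 68, with 2 lower in the knockout, 5 lower under FLAG-TASOR, and 5 higher and 1 lower under FLAG-TASOR2. Shares of all members and of all listed genes in each direction are given above.

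The list of kinases, phosphatases and phosphodiesterases, which also holds phospholipase genes and AKAP13, had 7 of 55. PLCB1 was higher and AKAP13 lower in the knockout, PRKCE was lower under FLAG-TASOR, and under FLAG-TASOR2 MAST4, IGF1R and PLCB1 were higher and PDE11A and PLCL1 lower. The list of GTPase regulators and cytoskeletal proteins had 6 of 67. RALGAPA2 was higher in the knockout, PARD3 was higher and TRIO lower under FLAG-TASOR, and under FLAG-TASOR2 FMN1 was higher and MYO3B, RALGAPA2 and IQGAP2 lower. The neuronal and synaptic adhesion list gave NCAM2 and ADGRB3 (2 of 45), and the list of dystrophin-associated proteins gave UTRN and SGCZ (2 of 8). The fragile site list gave MAD1L1 (1 of 29), the list of ion channels and glutamate receptors ITPR2 (1 of 48), the membrane scaffold list GPHN (1 of 30), the cadherin and catenin list CDH18 (1 of 11), and the RNA-binding list no gene (0 of 11). No gene of any list was called (0 genes), and unlisted genes have no value.

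Members rarely lay close together. With FLAG-TASOR2, SGCZ (log2 fold change 4.38 ± 1.05) and TUSC3 (log2 fold change -1.32 ± 0.34) lie 178875 bp apart on chromosome 8 and were listed in opposite directions in the authors' deposited table. ANKRD44 and PLCL1 lie 493528 bp apart on chromosome 2 and were both lower. These were the only member pairs within 1 Mb in any of the 3 tables.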

How the data were processed

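Ribosome-depleted RNA of 8 libraries was sequenced. In the submitters' processing notes the tools are STAR 2.7.8, Salmon, edgeR and DESeq2 and the build is hg38, with no role stated. Per the file headers, the authors deposited for every listed gene the log2 fold change, log2 mean expression, F score, p-value and adjusted p-value. Headers of this form are those of an edgeR F-test, but the sources used here do not state the tool. Deposited p-values were used as they are. Tables of transposable elements were not analysed here. The design text of the series speaks of biological replicates, and the labels do not say whether a group's 2 libraries come from separate clones. The p-values weigh the difference between 2 groups against the spread between libraries as the authors' test estimates it. They do not show whether a difference would recur in other clones.

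Gene positions, transcripts and classes came from GENCODE 29 (GRCh38, the assembly of hg38), matched by Ensembl identifier for 257 of 268, 253 of 261 and 853 of 884 listed genes. The number of genes tested was recovered by dividing the adjusted by the unadjusted p of the gene with the lowest p, possible in 2 of the 3 tables. The total degrees of freedom were solved from each F score and p-value, and by these no member had a group with all counts at 0. Levels assume that the log2 mean is taken over the 4 libraries of a comparison. The steps were tested on simulated data with Python 3.11.15 and scipy 1.17.1.

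The members and lists were chosen with earlier results of these data known. The rule for named genes took every member of the knockout and FLAG-TASOR tables and, of the FLAG-TASOR2 table, the 12 members per direction with the smallest p, members in 2 or more tables or of at least 1000000 bp, and up to 4 per list by p. A few genes that this rule names are counted but left out of the text and figures. Alternatives were other span limits, thresholds and families, and, added after seeing the data, the span of the principal transcript.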

Additional observations from a re-analysis of the deposited data

How the results depend on the processing

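No paired analysis was possible because the tables hold no value per library, and for the same reason no replicate could be left out. The count of called members was 0 in all 3 tables under every alternative run. Most alternatives keep the same members or only some of them, so their count was fixed at 0. Only the minimum of 200000 bp and the return of the left-out families add genes, and there the count was 0 too. Of the values recomputed, 90 were labelled the same as the reported ones and 30 as moved. For most of those that moved, the alternative keeps fewer genes by construction. The label for the same is broad: it holds 37 members higher with FLAG-TASOR2 at a minimum of 200000 bp, reported as 25. Leaving out members that overlap another listed gene, or that have a group at 0, removed no member. The values of these alternatives were therefore unchanged by construction. With a minimum of 500000 bp, 3 members were higher and 2 lower in the knockout (median 1.37). The counts were 3 higher and 6 lower with FLAG-TASOR, and 9 higher and 3 lower with FLAG-TASOR2. With a minimum of 200000 bp, 12 members were higher and 12 lower in the knockout (median -0.031). At that minimum 9 were higher and 21 lower with FLAG-TASOR, and 37 higher and 33 lower with FLAG-TASOR2. At or above the median expression of each table, 3 were higher and 4 lower in the knockout. With FLAG-TASOR 2 were higher and 9 lower, and with FLAG-TASOR2 14 and 10. At an unadjusted p below 0.01, 5 were higher and 3 lower in the knockout (median 1.32), 0 and 5 with FLAG-TASOR, and 12 and 6 with FLAG-TASOR2. Above an absolute log2 fold change of 2, 5 were higher and 6 lower in the knockout (median -2.61). With FLAG-TASOR 2 were higher and 10 lower (median -2.59), and with FLAG-TASOR2 16 and 5 (median 2.94). With the left-out families put back, the knockout median was 0.10. The sign of the knockout median therefore depends on the genes counted. With the span of the principal transcript, a choice made after seeing the data, 6 and 7 members were higher and lower in the knockout, 4 and 17 with FLAG-TASOR, and 20 and 13 with FLAG-TASOR2. The depth of the libraries is unknown, so no detection limit can be given.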

Other observations

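Very long genes of other classes were listed as well, none with an adjusted p below 0.05. Of the protein-coding families left out above, the authors' deposited tables list SEMA3A, an axon guidance ligand, at 1.28 ± 0.40 in the knockout, the collagen gene COL14A1 at -4.78 ± 1.54 with FLAG-TASOR, and the receptor gene ROBO1 at 1.99 ± 0.38 with FLAG-TASOR2. Noncoding genes of at least 300000 bp with FLAG-TASOR2 included MIR99AHG, the host gene of a microRNA cluster, at 4.21 ± 0.88, the antisense gene AC006148.1 at 5.94 ± 0.81, and the X-linked genes XACT and FTX at -1.56 ± 0.51 and -1.06 ± 0.28 in the authors' deposited table. LINC00534 on chromosome 8 was listed at -1.05 ± 0.40 in the knockout and at 1.37 ± 0.36 with FLAG-TASOR2 in the authors' deposited tables, and the difference between these groups was not tested. LINC02241 (3.22 ± 0.81 in the authors' deposited table) lies 35967 bp from CDH18, which was also listed as higher with FLAG-TASOR2. Other nearest listed genes went the opposite way. TRIM25, 324728 bp from ANKFN1, was lower there (-1.20 ± 0.21 in the same table), and ANKFN1 was higher.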
